A study of Mus musculus with 3 samples.

Results

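Transcripts of neurofilament proteins and other components of the axon were followed in a single-cell RNA library of mouse dorsal root ganglia (DRG). The set consisted of 8 genes chosen by symbol and matched to the gene names of the library, which listed 35980 features, and all 8 were found: Nefl, Nefm and Nefh (the light, medium and heavy neurofilament chains), Ina (alpha-internexin), Prph (peripherin), Tubb3 (class III beta-tubulin), Stmn2 (stathmin 2) and Thy1. The first 7 encode proteins of the cytoskeleton or its regulators. Thy1 encodes a cell-surface glycoprotein that is held by a lipid anchor and is carried by large sensory neurons, T lymphocytes and some fibroblasts, so the name axonal cytoskeleton did not describe it.

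Neurofilaments are intermediate filaments that fill axons, and the amount of neurofilament is known to go with axon calibre and so with conduction speed. The light chain forms the core of the filament, the medium and heavy chains bring long side arms, and alpha-internexin and peripherin can join the same polymer. In sensory ganglia, heavy neurofilament is the classical mark of large neurons with myelinated A-fibres, and peripherin of small neurons with unmyelinated C-fibres.

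The study compared Achilles tendon after nerve injury with sham-operated tendon and also profiled the ganglia that hold the sensory neurons of the limb. All mice were C57BL/6. Tendon neurectomy mice had the sural nerve, which carries sensation from the lower leg and foot, cut 1 week before 4 weeks of immobilisation in dorsiflexion. Tendon sham mice had the nerve exposed and the same 4 weeks of immobilisation, and each tendon group held 5 mice. The DRG library was pooled from 18 ganglia (lumbar level 4 to sacral level 1) of 6 mice that had received 5 µL of the viral vector AAV-PHP.S-tdTomato, which carries a red fluorescent reporter, in the sheath of the left Achilles tendon at 4 weeks of age, 4 weeks before harvest. Whether ganglia came from the injected side or from both is given differently by different labels, and the word lentivirus also stands for the vector in 1 of them. With a single library for each group, no difference had a replicate check and no test was possible. Levels are unique molecular identifiers (UMIs, each marking 1 captured transcript) of a gene per 1000000 UMIs of a class of barcodes (CPM). Where 2 members are set against each other, the quantity is a ratio of their UMIs, which is read across subtypes and not as a ratio of transcript numbers, since the genes may be captured unequally. Intervals in parentheses are exact 95% intervals and cover counting error only. A level was called higher or lower when it differed at least 1.5-fold.

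In the DRG library 239515477 UMIs were spread over 23566 barcodes (median 3422 each). Filters left 21834 barcodes. Of these, 3055 were gated as neurons from 10 pan-neuronal genes, none of them a member, and they were 14.0% of the barcodes and held 69.3% of the UMIs. Another 18488 barcodes had at most 2 of those genes, and 291 lay between. The other barcodes included 6666 with markers of myelinating Schwann cells, 1576 of satellite glia and 1441 of fibroblasts, the cell types known in a ganglion. The library shared 153 cell barcodes with the neurectomy library and 189 with the sham library, and among neurons these were 14 and 23.

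Promoters are shown for the 3 members present in the RefSeq promoter table used here (build GRCm38.p6), because 2 of them, Ina and Prph, encode filament proteins whose levels over subtypes ran differently from those of the neurofilament chains. Each run is the 250 bases before the transcription start on the plus strand. Capitals mark a TATA box core (TATAAA) or a GC box (GGGCGG), searched on both strands, where CCGCCC is the GC box read from the other strand. The windows are chr19:47014431-47014680 for Ina, chr15:99054924-99055173 for Prph and chr8:123411303-123411552 for Tubb3.
Ina: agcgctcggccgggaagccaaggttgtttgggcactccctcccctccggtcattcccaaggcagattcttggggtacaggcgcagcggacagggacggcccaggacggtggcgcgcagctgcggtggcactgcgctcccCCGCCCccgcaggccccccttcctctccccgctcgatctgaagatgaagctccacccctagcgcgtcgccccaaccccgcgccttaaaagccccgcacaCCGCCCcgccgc
Prph: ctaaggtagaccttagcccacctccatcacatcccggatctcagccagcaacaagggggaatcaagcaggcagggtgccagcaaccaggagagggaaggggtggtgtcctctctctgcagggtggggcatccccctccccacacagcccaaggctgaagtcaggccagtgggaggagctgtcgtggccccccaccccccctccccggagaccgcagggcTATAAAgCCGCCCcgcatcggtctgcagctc
Tubb3: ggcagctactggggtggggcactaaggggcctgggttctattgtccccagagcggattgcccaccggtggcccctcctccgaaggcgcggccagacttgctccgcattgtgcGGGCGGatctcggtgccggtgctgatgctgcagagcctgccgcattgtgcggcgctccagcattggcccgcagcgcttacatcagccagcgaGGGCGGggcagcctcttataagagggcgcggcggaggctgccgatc
The Prph window held 1 TATAAA, which began 31 bases before the start, and 1 GC box beside it. The windows of Ina and Tubb3 held 2 GC boxes each and no TATAAA, and no base belonged to both motifs in any of the 3. Among 32851 promoter windows of the same length, 12.4% held TATAAA and 32.7% held GGGCGG. A match describes the letters only.

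All 8 members were higher in neurons than in other barcodes (8 of 8, against 35.4% of 10988 genes called higher, 37.1% called lower and 72.5% called in either direction). The median log2 ratio of the 8 was 4.24, and that of all genes was 0.00. Together the members took 0.833% of neuron UMIs and 0.0337% of the UMIs of other barcodes.

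Among the filament proteins, Nefl stood at 1186 CPM (1181 to 1191) in neurons and 83.9 (81.8 to 86.1) in other barcodes, a ratio of 14.1 (13.8 to 14.5). Nefm stood at 413 in neurons and 28.4 in other barcodes, a ratio of 14.5 (13.9 to 15.2). Nefh stood at 243 in neurons and 24.2 in other barcodes, a ratio of 10.1 (9.58 to 10.6), the smallest of the 8. Prph had a ratio of 36.9 (35.8 to 38.1), from 2179 CPM in neurons and 59.0 in other barcodes. Ina had the largest, 76.2 (49.8 to 123), from 22.9 CPM in neurons and 0.300 in other barcodes. Ina was thus the member least seen outside neurons, with 21 UMIs over all 18488 other barcodes.

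Tubb3, a tubulin isotype used as a neuronal marker, had 1573 CPM in neurons and 78.3 in other barcodes (ratio 20.1, 19.6 to 20.6). Stmn2, a regulator that destabilises microtubules in growing axons, had 2577 in neurons and 55.5 in other barcodes (ratio 46.4, 45.0 to 47.9). Thy1 had 134 in neurons and 7.49 in other barcodes (ratio 17.8, 16.3 to 19.5). With only barcodes of at least 5000 UMIs, 6 of the 8 ratios were over 1.5 times larger, and on the log2 scale they were 5.00 in place of 3.82 for Nefl, 4.66 in place of 3.86 for Nefm, 4.07 in place of 3.33 for Nefh, 6.24 in place of 5.21 for Prph, 5.41 in place of 4.33 for Tubb3 and 6.33 in place of 5.54 for Stmn2. Nearly every neuron held UMIs of Nefl (99.6%), Nefm (98.1%), Prph (99.8%), Tubb3 (99.8%) and Stmn2 (3054 of 3055), whereas 89.5% held Nefh, 52.4% Ina and 34.8% Thy1. These shares were taken at a median of 50797 UMIs per neuron. Among other barcodes, at a median of 2956 UMIs, 13.9% held Nefl, 6.02% Nefh, 0.108% Ina and 2.29% Thy1.

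The level outside neurons was not the same in every class. Nefl stood at 95.7 CPM (91.0 to 101) in barcodes with myelinating Schwann markers, at 33.4 (29.5 to 37.8) in satellite glia-like barcodes and at 21.9 (18.1 to 26.4) in endothelial-like barcodes. Barcodes that fitted no class held 111 (108 to 115). Nefh was highest in the Schwann class, with 35.3 CPM (32.5 to 38.3). It had 8.65 in satellite glia-like and 9.21 in endothelial-like barcodes, whose intervals overlapped. In the Schwann, satellite glia-like and endothelial-like classes the median depth was 2101, 4728 and 9018 UMIs. Nefl was seen in 12.6%, 13.1% and 12.1% of their barcodes. Myelinating Schwann cells wrap axons in the nerve. The part of depth, and of free or adhering neuronal RNA, in the levels of these classes was not tested. Thy1 went another way, with 210 CPM (120 to 341) in 20 lymphocyte-like barcodes and 22.8 (19.2 to 26.9) in fibroblast-like barcodes, against 4.73 (3.74 to 5.91) in the Schwann class.

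The members were then described over 13 neuron subtypes, each gated by marker genes that were not members. A marker counted as present with at least 2 UMIs and at least 0.5 per 10000. A single subtype was given to 2464 neurons (80.7%), 258 passed several gates and 333 passed none. Names ending in like rest on those markers alone, and the gates Kit and Fam19a1, and Penk and Prlr, are named by their genes. LTMR stands for low-threshold mechanoreceptor, a touch neuron, and CGRP for the calcitonin gene-related peptide made from Calca. Of the 104 pairs of member and subtype, 62 were called against the other gated neurons, 29 higher and 33 lower. The share of all genes called in either direction ran from 20.1% in Mrgpra3 pruriceptor-like neurons to 54.5% in Pvalb proprioceptor-like neurons.

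**Figure D1:**
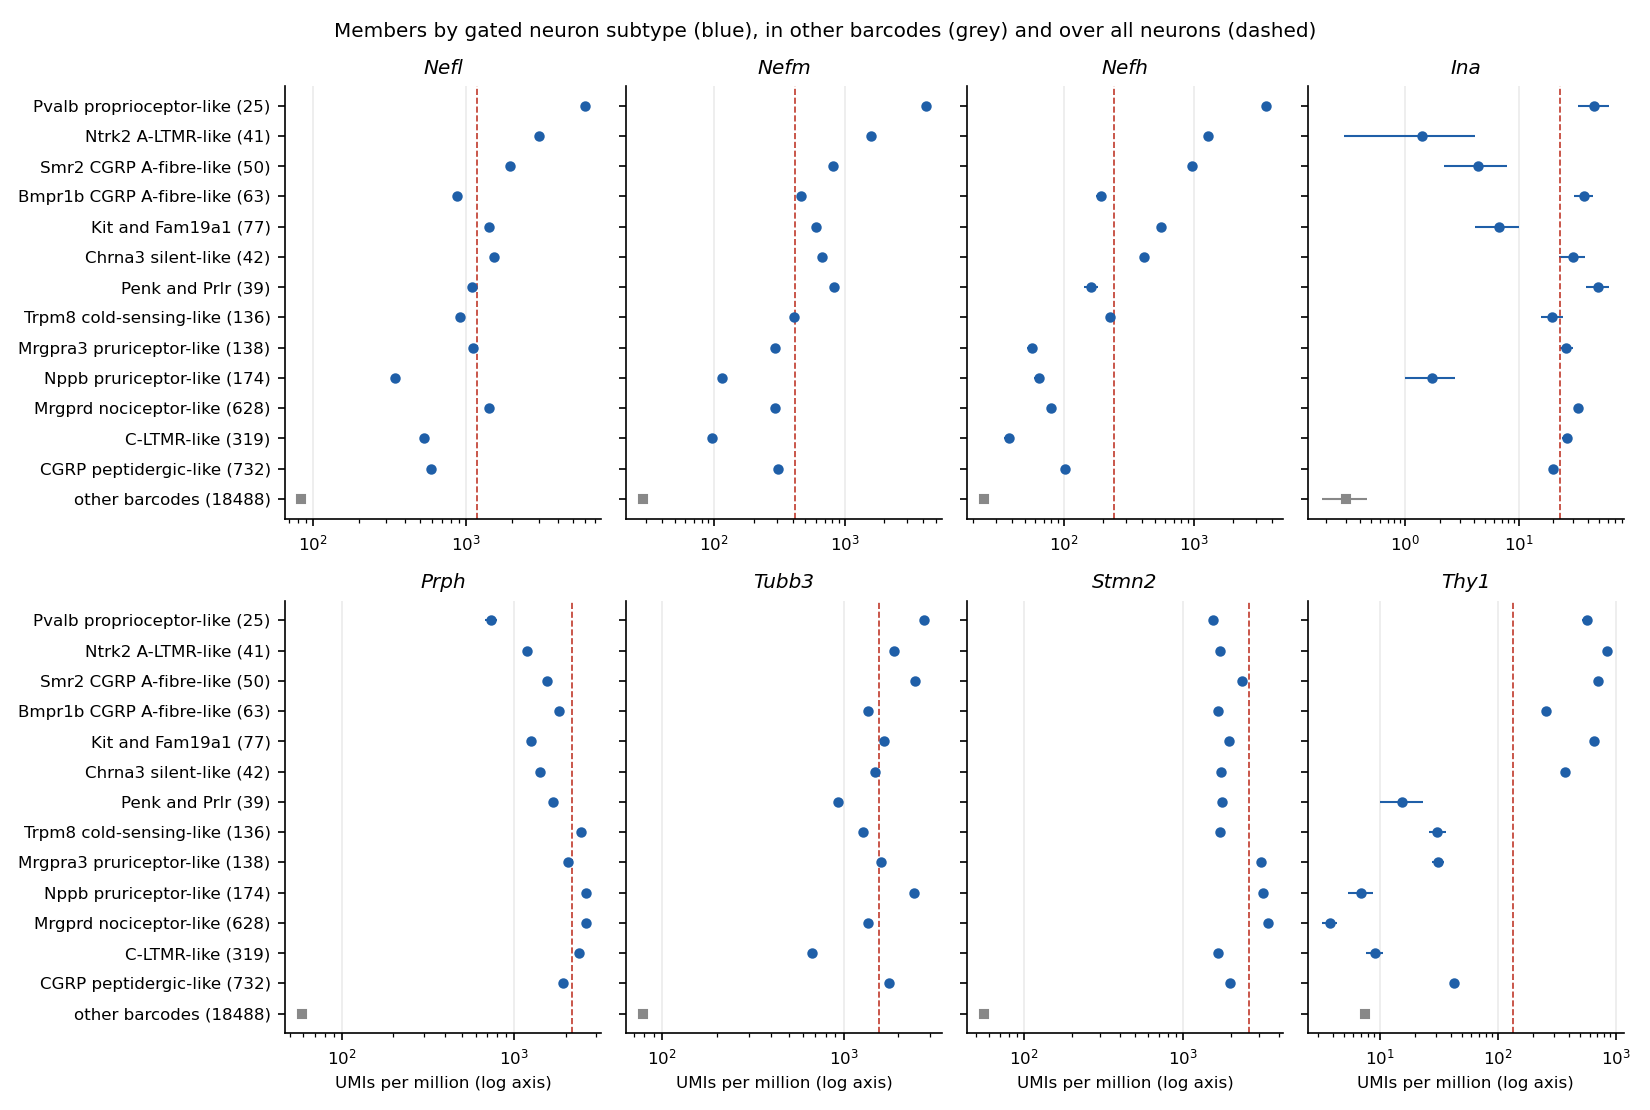
Level of each member (CPM, log axis) in 13 gated subtypes, with the number of neurons in parentheses (blue points, exact 95% counting intervals), in other barcodes (grey squares) and over all neurons (dashed line). The 3 neurofilament chains were highest in the Pvalb proprioceptor-like subtype, where Prph and Stmn2 were lowest, and Thy1 in Mrgprd nociceptor-like neurons lay at or below its level in other barcodes.

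Heavy neurofilament separated the subtypes most among the filament chains. Nefh stood at 3637 CPM (3516 to 3762) in 25 Pvalb proprioceptor-like neurons, which sense muscle length. It stood at 1297 (1249 to 1346) in 41 Ntrk2 A-LTMR-like neurons, at 969 (931 to 1009) in 50 Smr2 CGRP A-fibre-like neurons and at 560 (535 to 586) in 77 Kit and Fam19a1 neurons. Chrna3 silent-like neurons followed with 412, Trpm8 cold-sensing-like neurons with 225, Bmpr1b CGRP A-fibre-like neurons with 192 and Penk and Prlr neurons with 163. The 5 lowest were CGRP peptidergic-like neurons with 102, Mrgprd nociceptor-like neurons with 80.0, Nppb pruriceptor-like neurons with 63.9, Mrgpra3 pruriceptor-like neurons with 56.9 and C-LTMR-like neurons with 37.6 (34.7 to 40.7). Only Bmpr1b against Penk and Prlr, and Nppb against Mrgpra3, had overlapping intervals among neighbours in this order. The order by clusters was not the same, as given below. The highest level was 96.7 times the lowest (88.7 to 106), a log2 ratio of 6.60, and with the level of other barcodes subtracted the log2 ratio was 8.07. Other barcodes held 24.2 CPM, so the lowest subtypes were not far above the level outside neurons.

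The spread of Nefh over single neurons set the same subtypes apart. In Pvalb proprioceptor-like neurons the 5th percentile was 16.3 UMIs per 10000, the median 42.1 and the 95th percentile 90.5. In C-LTMR-like neurons these were 0, 0.227 and 1.15, and in Mrgprd nociceptor-like neurons 0.145, 0.727 and 1.79, so these ranges did not overlap that of the Pvalb gate. The Kit and Fam19a1 gate was wide, with 0, 3.00 and 19.8, as was the Smr2 gate with 1.14, 9.50 and 43.0.

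Nefl and Nefm shared the top of that order. Nefl stood at 5983 CPM (5827 to 6141) in Pvalb proprioceptor-like neurons, 2987 in Ntrk2 A-LTMR-like and 1948 in Smr2 CGRP A-fibre-like neurons. It was lowest in CGRP peptidergic-like (594), C-LTMR-like (529) and Nppb pruriceptor-like neurons (346, 335 to 358), 17.3-fold below the top (16.6 to 18.0). Mrgprd nociceptor-like neurons, which are small non-peptidergic C-fibre neurons, stood apart from the Nefh order, since their Nefl of 1420 (1409 to 1430) lay in the upper part and overlapped that of Kit and Fam19a1 neurons (1415). They held 37.1% of all Nefl UMIs of neurons and were 20.6% of the neurons. That share of UMIs also reflects depth, since their median was 81642 UMIs against 50797 over all neurons.

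Nefm stood at 4174 (4045 to 4307) in Pvalb proprioceptor-like and 1602 in Ntrk2 A-LTMR-like neurons. Penk and Prlr neurons (826, 781 to 873) and Smr2 CGRP A-fibre-like neurons (816, 781 to 852) came next with overlapping intervals. The lowest were Nppb pruriceptor-like neurons with 115 and C-LTMR-like neurons with 95.7 (91.0 to 101), and the top was 43.6 times the bottom (41.1 to 46.3). Over the 13 subtypes the log2 levels of Nefm and Nefh had a Pearson correlation of 0.92, Nefl and Nefm 0.92, and Nefl and Nefh 0.87, which share 1 library and its depths.

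Within the triplet the chains were not in a fixed proportion. There were 0.608 Nefh UMIs for each Nefl UMI (0.582 to 0.635) in Pvalb proprioceptor-like neurons, 0.498 in Smr2 CGRP A-fibre-like and 0.434 in Ntrk2 A-LTMR-like neurons. The same ratio was 0.0711 in C-LTMR-like, 0.0563 in Mrgprd nociceptor-like and 0.0513 (0.0469 to 0.0561) in Mrgpra3 pruriceptor-like neurons. Nppb pruriceptor-like neurons, low in all 3 chains, had 0.185 (0.170 to 0.201).
Nefm over Nefl was highest in another subtype, with 0.759 (0.705 to 0.817) in Penk and Prlr neurons, 0.698 (0.670 to 0.727) in Pvalb proprioceptor-like neurons and 0.181 (0.171 to 0.191) in C-LTMR-like neurons. Penk and Prlr neurons combined this medium chain share with few heavy chain UMIs, 0.197 Nefh UMIs for each Nefm UMI (0.171 to 0.226), against 0.871 (0.832 to 0.913) in Pvalb proprioceptor-like neurons. The same ratio was highest in Smr2 CGRP A-fibre-like neurons (1.19, 1.12 to 1.26).

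**Figure D2:**
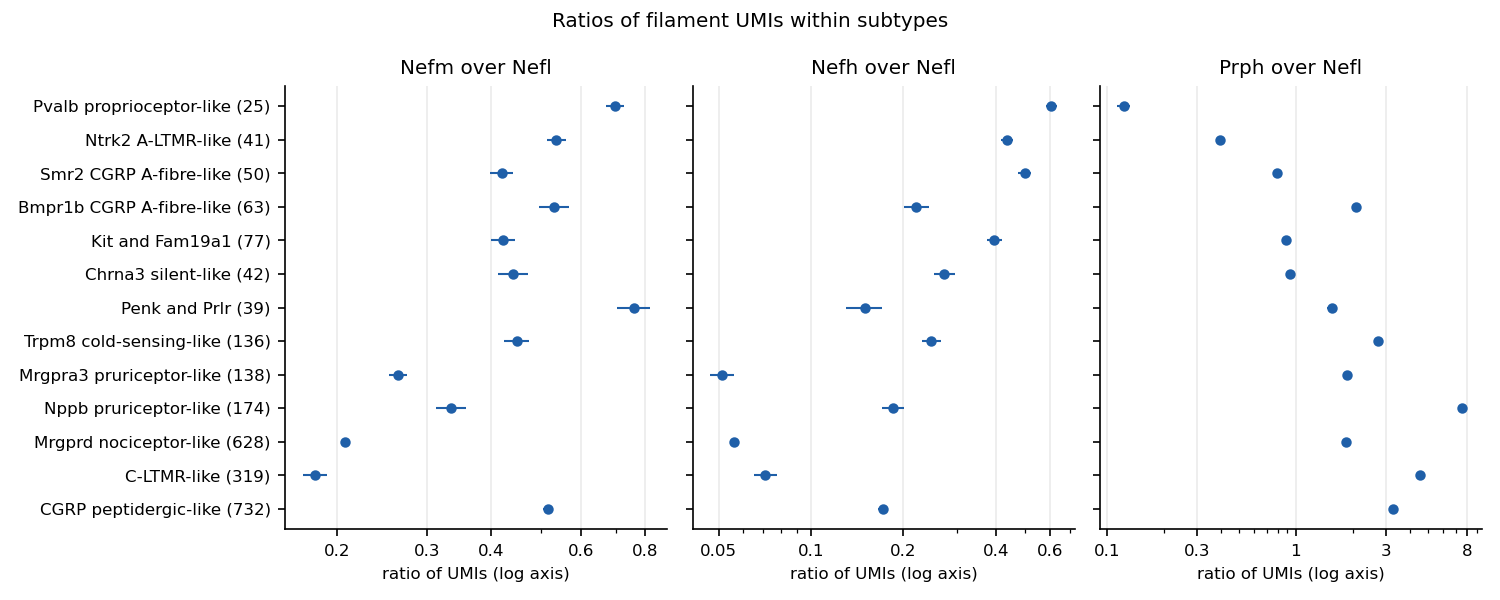
Ratio of UMIs of Nefm to Nefl, of Nefh to Nefl and of Prph to Nefl (log axes) in 13 gated subtypes, with the number of neurons in parentheses and exact 95% counting intervals. Nefh over Nefl ran from 0.608 in Pvalb proprioceptor-like to 0.0513 in Mrgpra3 pruriceptor-like neurons, whereas Prph over Nefl ran from 0.123 in Pvalb proprioceptor-like to 7.52 in Nppb pruriceptor-like neurons.

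Prph ran against the neurofilaments but over a narrower range. It was highest in Mrgprd nociceptor-like (2625, 2611 to 2639) and Nppb pruriceptor-like neurons (2602, 2570 to 2634), whose intervals overlapped, and then in Trpm8 cold-sensing-like (2465) and C-LTMR-like neurons (2392). It was lowest in Kit and Fam19a1 (1251), Ntrk2 A-LTMR-like (1185) and Pvalb proprioceptor-like neurons (737, 683 to 794). The span was 3.56-fold (3.30 to 3.84), and no subtype was called higher while 4 were called lower. Its correlation over the 13 subtypes was -0.90 with Nefh, -0.90 with Nefm and -0.84 with Nefl. Since Pvalb proprioceptor-like neurons still held 737 Prph CPM against 59.0 in other barcodes, Prph was lower in them, not missing.

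Ina followed neither pattern. It stood at 49.5 CPM (39.0 to 61.9) in Penk and Prlr neurons, 45.8 (33.1 to 61.7) in Pvalb proprioceptor-like and 36.8 (30.1 to 44.6) in Bmpr1b CGRP A-fibre-like neurons, with overlapping intervals. It was lowest in Smr2 CGRP A-fibre-like (4.38), Nppb pruriceptor-like (1.70) and Ntrk2 A-LTMR-like neurons (1.41, 0.290 to 4.11, 3 UMIs), a ratio of 35.2 between top and bottom (11.6 to 174). The intervals of 10 of its 12 pairs of neighbours overlapped, so its order is loose.
Because depth moves the share of neurons with a UMI, each neuron was thinned to 20000 UMIs. Ina was then seen in 65.8% of 38 Penk and Prlr neurons (48.6 to 80.4%), 45.1% of 610 Mrgprd nociceptor-like neurons (41.1 to 49.1%), 2.92% of 171 Nppb pruriceptor-like (0.956 to 6.69%) and 2.56% of 39 Ntrk2 A-LTMR-like neurons (0.0649 to 13.5%), and the neurons left out numbered 1, 18, 3 and 2. Unthinned, these shares were 71.8%, 82.5%, 8.05% and 7.32%. Proprioceptor-like and touch-neuron-like gates, both high in Nefh, therefore stood at opposite ends for Ina.

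Stmn2 varied least of the 8 members over the subtypes. Tubb3 was highest in Pvalb proprioceptor-like (2786, 2681 to 2895), Smr2 CGRP A-fibre-like (2463) and Nppb pruriceptor-like neurons (2429), and lowest in Penk and Prlr (930) and C-LTMR-like neurons (674, 661 to 687), a span of 4.13-fold (3.96 to 4.31). Stmn2 was highest in Mrgprd nociceptor-like (3412, 3396 to 3428), Nppb (3190) and Mrgpra3 pruriceptor-like neurons (3097). It was lowest in Pvalb proprioceptor-like neurons (1539, 1461 to 1621), a span of 2.22-fold (2.10 to 2.34). C-LTMR-like (1650) and Trpm8 cold-sensing-like neurons (1714) also lay in the lower part. The Stmn2 to Tubb3 ratio of UMIs ran from 2.50 (2.48 to 2.52) in Mrgprd nociceptor-like neurons to 0.552 (0.518 to 0.589) in Pvalb proprioceptor-like neurons. Tubb3 and Stmn2, both common pan-neuronal markers, thus had different orders over the subtypes, with a Pearson correlation of 0.24.

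Thy1 split the subtypes into a group of 6 with high levels and a group of 7 with low ones. It stood at 842 (803 to 881) in Ntrk2 A-LTMR-like, 710 in Smr2 CGRP A-fibre-like, 652 in Kit and Fam19a1 and 569 in Pvalb proprioceptor-like neurons, and at 371 and 259 in Chrna3 silent-like and Bmpr1b CGRP A-fibre-like neurons. The other 7 subtypes were led by CGRP peptidergic-like neurons with 42.5 (40.3 to 44.8), and Mrgpra3 pruriceptor-like neurons (31.3) and Trpm8 cold-sensing-like neurons (30.9) were also above the level of other barcodes. All 13 subtypes were called, 6 higher and 7 lower. Mrgprd nociceptor-like neurons had 3.79 (3.27 to 4.37) and Nppb pruriceptor-like neurons 6.98 (5.44 to 8.82), at or under the 7.49 (6.86 to 8.16) of other barcodes. Those other barcodes pooled classes from 4.73 in the Schwann class to 22.8 in fibroblast-like and 210 in lymphocyte-like barcodes. The ratio of 222 between top and bottom (191 to 259) thus rests on a level no higher than that outside neurons. With the level of other barcodes subtracted, nothing was left in Mrgprd nociceptor-like neurons and no ratio could be formed. The part of background in the ratio was not tested beyond this.
After thinning to 20000 UMIs, Thy1 was seen in 39 of 39 Ntrk2 A-LTMR-like neurons and in 4.26% of 610 Mrgprd nociceptor-like neurons (2.80 to 6.18%); unthinned, the shares were 100% and 12.4%. Its correlation with Nefh over the 13 subtypes was 0.87.

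In the Pvalb proprioceptor-like subtype 6 members were higher than in the other gated neurons (27.5% of 9693 genes were called higher) and 2 lower (27.0% called lower). The ratios were 26.5 for Nefh, 13.2 for Nefm, 8.21 for Thy1, 5.86 for Nefl, 1.88 for Ina and 1.85 for Tubb3, with 0.591 for Stmn2 and 0.325 for Prph. In C-LTMR-like neurons no member was higher (16.2% of 9455 genes) and 6 were lower (16.8%), namely Nefl, Nefm, Nefh, Tubb3, Stmn2 and Thy1, with Ina and Prph at 1.09 and 1.07. Mrgprd nociceptor-like neurons had 3 members higher, Nefl (1.68), Ina (1.67) and Stmn2 (1.60), against 9.43% of 9340 genes, and Nefh (0.385) and Thy1 (0.0339) lower, against 32.9%. In CGRP peptidergic-like neurons, the largest gate, 3 members were lower, Nefl (0.495), Nefh (0.566) and Thy1 (0.518), against 10.5% of 9448 genes, and none was higher, against 20.2%.

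The other subtypes were as follows. Ntrk2 A-LTMR-like neurons had 4 members higher (20.4% of 9477 genes) and 3 lower (23.1%; either direction 43.5%). Smr2 CGRP A-fibre-like neurons had 5 higher (15.3% of 9305) and 1 lower (19.7%; either 34.9%). Bmpr1b CGRP A-fibre-like neurons had 2 higher (15.2% of 9398) and 1 lower (12.4%; either 27.6%). All 3 were among the 6 subtypes higher in Thy1. Kit and Fam19a1 neurons had 3 higher (19.5% of 9592) and 2 lower (12.3%; either 31.8%). Chrna3 silent-like neurons had 3 higher (20.1% of 9418) and 2 lower (19.9%; either 40.0%). Penk and Prlr neurons had 2 higher (18.1% of 9650) and 2 lower (17.5%; either 35.6%). These gates lay between the large-fibre and small-fibre ends in Nefh. Trpm8 cold-sensing-like neurons had none higher (22.8% of 9759) and 2 lower (12.9%; either 35.7%). Mrgpra3 pruriceptor-like neurons had none higher (6.21% of 9128) and 2 lower (13.9%; either 20.1%). Nppb pruriceptor-like neurons had 1 higher, Tubb3 (12.9% of 9321), and 5 lower (17.3%; either 30.2%). In either direction the shares of genes were 42.4% in Mrgprd nociceptor-like, 32.9% in C-LTMR-like and 30.7% in CGRP peptidergic-like neurons.

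Neurons outside a single gate held much of the heavy chain. The 591 neurons with several gates or none were 19.3% of neurons and carried 43.5% of Nefh UMIs and 53.6% of Thy1 UMIs, but 11.7% of Prph and 8.81% of Ina UMIs. Nefh stood at 733 CPM (718 to 747) in neurons with several gates and 702 (686 to 718) in those with none, against 161 (159 to 163) in neurons of 1 subtype. The commonest overlap was Bmpr1b CGRP A-fibre-like with Kit and Fam19a1, in 59 neurons, with Nefh at 1312, Nefl at 2326, Thy1 at 1058 and Ina at 3.50 CPM.
Clusters built from the transcriptome without the members placed many of these neurons. A cluster of 163 neurons named from Smr2 alone, of which 47.9% had passed no gate, held 1856 Nefh CPM, against 969 in the 50 neurons of the Smr2 gate. Clusters named from the Kit and Fam19a1 and from the Ntrk2 markers held 1156 and 1095, against 560 and 1297 in their gates. The cluster named from Smr2 thus lay above the cluster named from the Ntrk2 markers, the reverse of the gates, though cluster and gate held largely different neurons. The same held for Nefl (4017 against 2107) and Nefm (1950 against 1039). The Pvalb cluster stayed highest in Nefh, with 3520. The order of subtypes for Nefh therefore rests on neurons with clean marker combinations, and below the Pvalb gate it changed with the assignment. The reads of a gene and of its overlapping neighbours cannot be told apart where strand was not used in counting, which is not stated: Nefm overlaps A230070E04Rik, Nefh overlaps Ap1b1 and Gm35321, and Ina overlaps Nt5c2 in the RefSeq annotation, with 4393, 6461, 33 and 4098 UMIs of these neighbours in neurons.

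Over single neurons, Spearman correlations of the levels per 10000 UMIs were 0.67 for Nefl with Nefm, 0.60 for Nefm with Nefh and 0.58 for Nefh with Thy1 among all 3055. Prph went with Stmn2 (0.43) and against Thy1 (-0.42). Within subtypes the values went both ways. Within 50 Smr2 CGRP A-fibre-like neurons they were higher, with 0.93 for Nefl with Nefm, 0.94 for Nefl with Nefh and 0.92 for Nefm with Nefh, against 0.67, 0.50 and 0.60 over all neurons. Within 77 Kit and Fam19a1 neurons these were 0.86, 0.83 and 0.81. In the Smr2 gate the chains also went with depth, at -0.60 for Nefl, -0.65 for Nefm and -0.59 for Nefh against total UMIs. In Kit and Fam19a1 neurons those values were 0.05, 0.11 and 0.08. Within 628 Mrgprd nociceptor-like neurons Nefl and Nefm still went together (0.44), but Nefl with Nefh had 0.14 and Nefh with Thy1 0.12, and within 732 CGRP peptidergic-like neurons these 3 were 0.49, 0.12 and 0.33. Prph and Tubb3, at 0.12 over all neurons, had 0.63 and 0.55 within these subtypes. All levels of a neuron share its total of UMIs.

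Deeper and shallower neurons differed in 6 of 8 members. The 648 neurons of at least 70000 UMIs were set against the 474 under 30000 UMIs. Lower in deep neurons were Nefm, with 326 against 877 CPM (ratio 0.371, 0.361 to 0.382), Nefh, with 140 against 703 (0.200, 0.193 to 0.207), Thy1, with 61.6 against 220 (0.280, 0.264 to 0.297), and Nefl, with 1367 against 2137 (0.640, 0.629 to 0.651). These 4 stood beside 32.9% of 9628 genes called lower. Higher were Stmn2, with 3403 against 2095 (1.62, 1.60 to 1.65), and Ina, with 29.2 against 16.6 (1.75, 1.46 to 2.12), beside 8.04% of genes called higher. Prph (1.33, 1.30 to 1.35) and Tubb3 (0.885, 0.869 to 0.901) were not called. The median log2 ratio was -0.41 for the members and -0.33 for all genes.

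**Figure D3:**
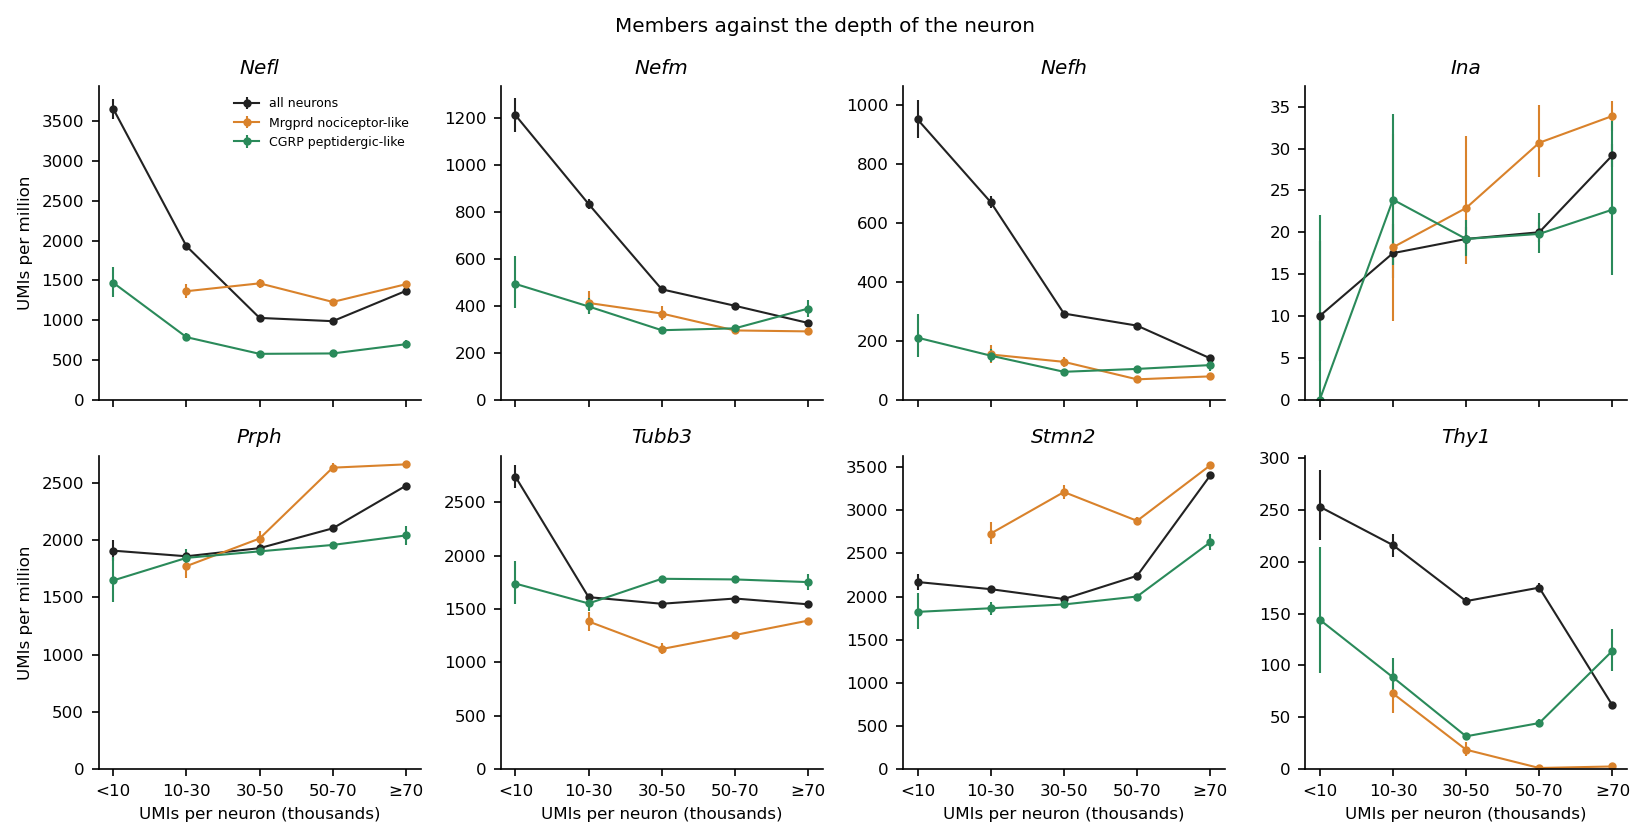
Level of each member (CPM) in neurons binned by total UMIs, for all neurons and within the Mrgprd nociceptor-like and CGRP peptidergic-like subtypes, with exact 95% counting intervals, and a subtype bin is drawn from 10 neurons up. Over all neurons Nefh was 951, 670, 292, 251 and 140 CPM from the shallowest to the deepest bin, a steeper course than within either subtype.

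The makeup of the bins moved with these levels. Mrgprd nociceptor-like neurons were 68.5% of deep and 7.59% of shallow neurons, CGRP peptidergic-like neurons 2.31% and 18.4%, and neurons with no gate 4.48% and 37.8%. Glial transcripts moved too: the 4 satellite glia markers summed to 298 CPM in deep neurons, against 3214 in neurons of 10000 to 30000 UMIs and 4674 in those under 10000, and the 4 myelinating Schwann markers to 511 against 850 and 3492. The part of each in the differences was not tested over all neurons.
Within subtypes the directions were mixed. Nefh had 78.7 CPM in deep and 150 in shallow Mrgprd nociceptor-like neurons (ratio 0.526, 0.432 to 0.647), 647 and 2969 in Smr2 CGRP A-fibre-like neurons (0.218, 0.190 to 0.249; 8 and 11 neurons), and 48.8 and 47.7 in C-LTMR-like neurons (1.02, 0.600 to 1.81). As geometric means with equal weight over the 5 subtypes with enough deep and shallow neurons, Nefh had a ratio of 0.546, Nefm 0.623, Nefl 0.651, Thy1 0.759, Prph 1.35, Stmn2 1.12 and Tubb3 0.917, and Ina had 1.50 over 3 subtypes. Thy1 in Mrgprd nociceptor-like neurons was 2.52 CPM in deep and 70.4 in shallow neurons, whereas in C-LTMR-like neurons it was 72.2 and 7.16.

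Barcodes that only just passed or just missed the neuron gate also held much neurofilament. The 45 barcodes with 6 pan-neuronal genes had 4287 Nefl and 1110 Nefh CPM at a median of 4023 UMIs. The 100 barcodes with 4 of those genes, outside the gate, had 2640 and 776 at a median of 3004 UMIs. Ina did not share this, with 7.76 and 4.98 CPM in these classes against 22.9 over all neurons.

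The tracing experiment marked neurons by the vector feature AAV_gene1, and which vector sequence it stands for is not stated in the sources used here. The comparison bears on which neurons took up a vector given at the tendon. Of 3055 neurons, 357 held at least 1 AAV_gene1 UMI (11.7%, 10.6 to 12.9%), with a median of 11 UMIs in them, and 2698 held none. Other barcodes held it in 97 cases (0.525%, 0.426 to 0.640%). The median depth was 52441 UMIs in neurons with AAV_gene1 and 50629 in neurons without.

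Neurons with AAV_gene1 had more neurofilament and Thy1 transcripts than neurons without. Nefh stood at 489 CPM (480 to 499) with and 210 (208 to 212) without, a ratio of 2.33 (2.28 to 2.39). Thy1 stood at 302 (294 to 310) with and 111 (109 to 112) without, a ratio of 2.72 (2.64 to 2.81). Nefm stood at 619 (608 to 630) with and 386 (382 to 389) without, a ratio of 1.60 (1.57 to 1.64). These 3 of 8 members were called higher, beside 1.85% of 9040 genes, and none was called lower, beside 1.07%. The other ratios were 1.37 for Nefl (1.36 to 1.39), 1.11 for Tubb3, 1.00 for Stmn2, 0.853 for Prph (0.844 to 0.862) and 0.722 for Ina (0.643 to 0.809). The median log2 ratio was 0.30 for the members and -0.02 for all genes. The typical neuron differed less, since the median Nefh was 1.17 UMIs per 10000 with AAV_gene1 and 0.777 without, while the upper quartiles were 9.83 and 1.67.

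**Figure D4:**
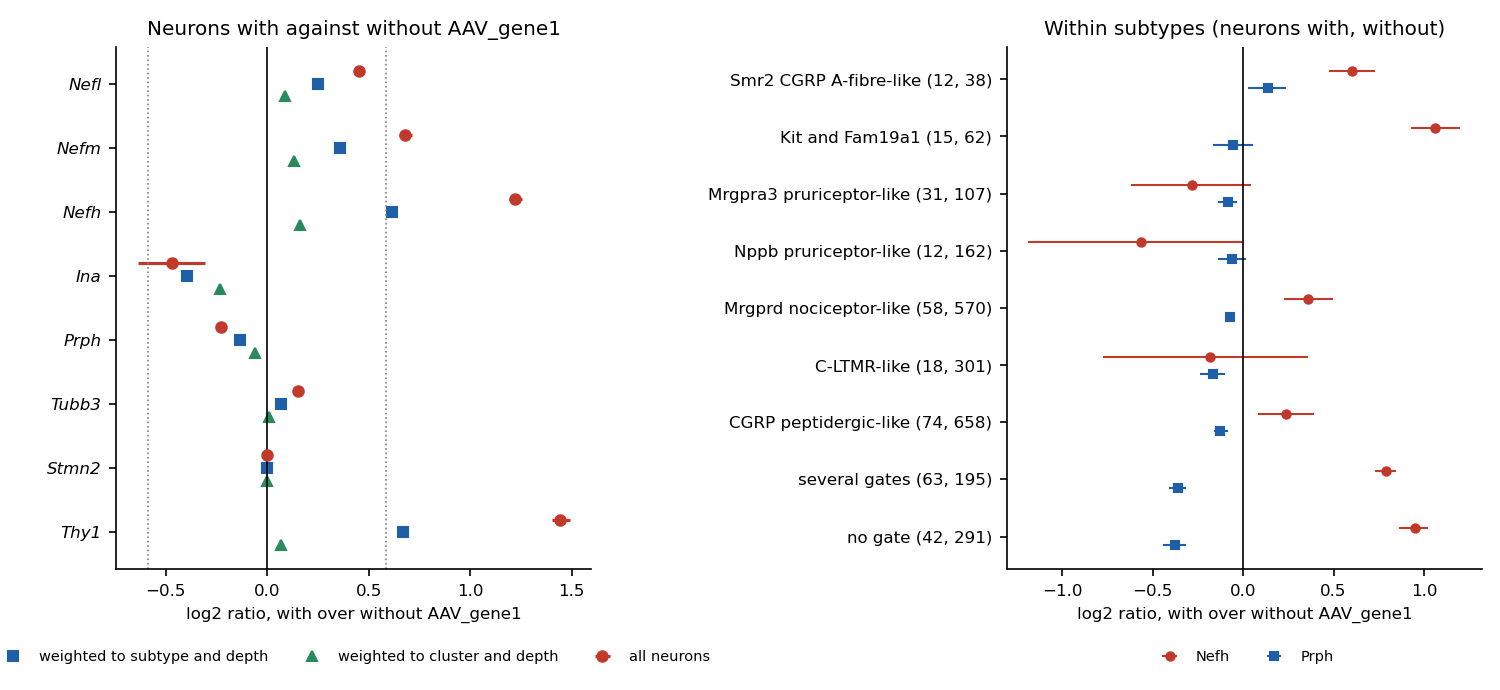
Left, log2 ratio of each member in neurons with over neurons without AAV_gene1, over all neurons (exact 95% intervals), with the neurons without AAV_gene1 weighted to the subtypes and depths of the others, and weighted to clusters and depths; dotted lines mark 1.5-fold. Right, the same log2 ratio of Nefh and Prph within subtypes of at least 10 neurons with AAV_gene1 and in neurons with several gates or none (numbers with and without in parentheses). The log2 ratio of Nefh was 1.22 over all neurons, 0.62 weighted to subtypes and depths and 0.16 weighted to clusters and depths.

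The makeup of the traced neurons differed as well. Neurons with several gates were 17.6% of those with and 7.23% of those without AAV_gene1, and Mrgprd nociceptor-like neurons 16.2% and 21.1%, C-LTMR-like neurons 5.04% and 11.2%, and Mrgpra3 pruriceptor-like neurons 8.68% and 3.97%. Of the 59 neurons in both the Bmpr1b and the Kit and Fam19a1 gates, 33.9% held AAV_gene1 (22.1 to 47.4%), and of the 17 in the Kit and Fam19a1 and Chrna3 gates, 52.9% (27.8 to 77.0%). The neurons of these overlapping gates held 1312 and 960 Nefh CPM, whereas Mrgpra3 pruriceptor-like neurons held 56.9.
With neurons without AAV_gene1 weighted to the same subtypes and depth bins, the ratios were 1.53 for Nefh, 1.59 for Thy1, 1.28 for Nefm and 1.19 for Nefl, so 2 of 8 members were called higher, beside 0.378% of 8997 genes, and none lower, beside 0.411%. With weights from the 27 clusters, an alternative added after seeing the data, no member was called and the log2 ratios were 0.16 for Nefh, 0.07 for Thy1, 0.13 for Nefm, 0.09 for Nefl and -0.23 for Ina. The clusters differ from the gates in how neurons were assigned as well as in number, and the part of each in the smaller ratios was not tested.

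Within single subtypes with at least 10 neurons carrying AAV_gene1, Nefh was called higher in 2 of 7. In Kit and Fam19a1 neurons it stood at 952 CPM (882 to 1027) in 15 neurons with AAV_gene1 and 455 (430 to 482) in 62 without, a ratio of 2.09 (1.90 to 2.30), in a subtype where 5.25% of genes were called higher. In Smr2 CGRP A-fibre-like neurons it stood at 1331 (1233 to 1435) in 12 neurons with AAV_gene1 and 877 (836 to 919) in 38 without, a ratio of 1.52 (1.39 to 1.66), where 5.26% of genes were called higher. In Mrgprd nociceptor-like neurons the ratio was 1.28 (1.17 to 1.41) in CGRP peptidergic-like neurons 1.18 (1.06 to 1.31), in C-LTMR-like neurons 0.880 (0.584 to 1.28), in Mrgpra3 pruriceptor-like neurons 0.822 (0.650 to 1.03) and in Nppb pruriceptor-like neurons 0.677 (0.439 to 1.00). Both gates that were called had wide ranges of Nefh among single neurons. In the same gates Nefl (1.83, 1.72 to 1.95 in Kit and Fam19a1 neurons and 1.60, 1.50 to 1.70 in Smr2 neurons) and Nefm (1.65 and 1.74) were called higher too. The median depth in Smr2 neurons was 52502 UMIs with AAV_gene1 and 61201 without. Over that gate the Spearman correlation with total UMIs was -0.59 for Nefh, -0.60 for Nefl and -0.65 for Nefm. Kit and Fam19a1 neurons had median depths of 44708 and 43382 UMIs. The part of depth in the ratios within these gates was not tested. In Nppb pruriceptor-like neurons Nefl was called lower, with 180 CPM in 12 neurons with AAV_gene1 and 356 in 162 without (0.505, 0.412 to 0.612), where 7.56% of genes were called lower. Nefl was skewed over the single neurons of this gate, with a mean above the upper quartile. The cluster named from the Nppb markers held 190 Nefl CPM in 163 neurons, near the level with AAV_gene1. The interval covers counting error only, and the part of a few high neurons in this ratio was not tested. Thy1 was called higher in 3 of the 7 subtypes and lower in 2. Its ratio was 1.85 (1.69 to 2.02) in Kit and Fam19a1 neurons and 0.511 (0.348 to 0.730) in Mrgpra3 pruriceptor-like neurons, where 1.51% of genes were called lower. In C-LTMR-like neurons it was 2.92 (1.75 to 4.66), where 7.53% were called higher. It came from 24.1 CPM in 18 neurons with and 8.26 without, the latter near the level of other barcodes. In Nppb pruriceptor-like neurons it was 0.232 (0.00579 to 1.34), from 1.70 CPM with and 7.31 without, and the interval took in equal levels. In Mrgprd nociceptor-like neurons it was 3.31 (2.35 to 4.59), from 10.2 CPM with and 3.08 without, both near the 7.49 of other barcodes, where 0.474% of genes were called higher.
By depth, the ratio for Nefh was 2.73, 2.98, 2.42, 2.39 and 1.87 from the shallowest to the deepest bin, so it was above 1.5 in each of the 5. Prph was lower with AAV_gene1 in all 5 bins, with ratios of 0.530 to 0.908.

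Other axonal genes were listed beside the members, and 43 of the 49 had enough UMIs to compare the subtypes with the highest and the lowest Nefh, Pvalb proprioceptor-like and C-LTMR-like neurons. At least 2-fold higher in Pvalb proprioceptor-like neurons were 9 (15.3% of all 9501 genes), and at least 2-fold lower were 11 (17.4%), with a median log2 ratio of 0.13 for the list and 0.01 for all genes. Nothing was called particular to the list from these counts.

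By group, of 8 microtubule-associated proteins, 4 were higher: Map2 42.0-fold (34.2 to 51.9), Map1b 5.76-fold (5.57 to 5.95), Map7d2 5.68-fold (5.18 to 6.22) and Map1a 2.17-fold (2.02 to 2.33), with Dclk1 lower (0.462). Among tubulins, Tuba4a was 12.7-fold higher (10.8 to 14.9), and Tubb2b (0.0314) and Tubb5 (0.494) were lower. In the membrane skeleton Epb41l3 (7.04) and Sptbn4 (2.20) were higher and Ank3 (0.275) lower, and among axonal membrane proteins Cntn1 (7.48) and Nfasc (4.94), which serve nodes of Ranvier in myelinated fibres, were higher, with Ncam1 (0.0886) and Sncg (0.299) lower. Of 4 growth cone genes, 3 were lower, Gap43 (0.238), Marcks (0.0795) and Marcksl1 (0.0986, 0.00248 to 0.556), as were Stmn1 (0.0978) and Vim (0.184). None of the 8 motor genes reached 2-fold. The 2 gates also differed in glial transcripts. Satellite glia markers summed to 228 CPM in Pvalb proprioceptor-like and 1357 in C-LTMR-like neurons, and myelinating Schwann markers to 264 and 1438. Vim, Marcks, Marcksl1, Ncam1 and Dclk1, all lower in the Pvalb gate, were lower in neurons than in other barcodes (Vim 132 against 2983 CPM). So was Nfasc, which was higher in that gate. The part of glial transcripts in these ratios was not tested.
In neurons against other barcodes, 31 of the 43 were at least 1.5-fold higher and 6 lower, beside 35.4% and 37.1% of all genes. With AAV_gene1 against without, 5 were higher, Cntn1 (1.89), Dclk1 (1.67), Map7d2 (1.59), Gap43 (1.57) and Tuba4a (1.53), and none was lower, beside 1.85% and 1.07% of all genes, and these comparisons share their neurons with those of the members.

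**Figure D5:**
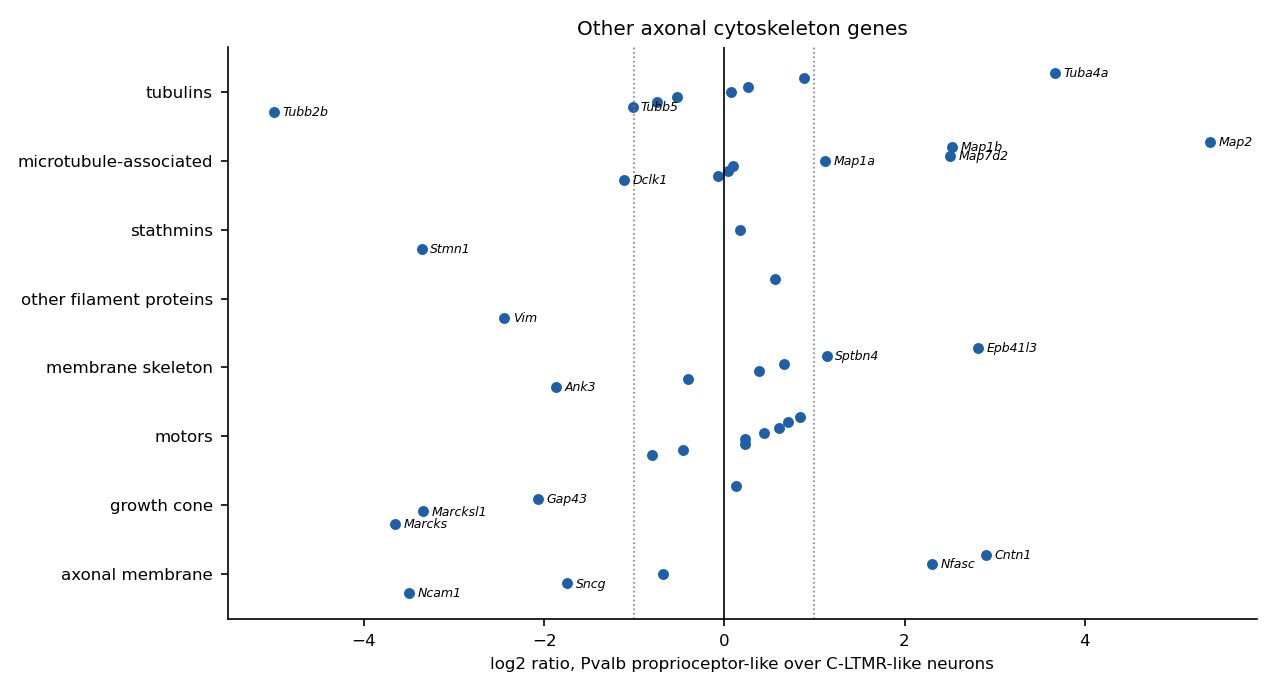
Log2 ratio of 43 other axonal cytoskeleton genes in Pvalb proprioceptor-like over C-LTMR-like neurons, by group, with dotted lines at 2-fold and names for the 20 genes beyond them. Map2 and Tuba4a lay farthest to the right, Tubb2b farthest to the left, and all 8 motor genes lay within 2-fold.

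The genes whose levels ran most like those of Nefh over the 9 subtypes with at least 50 neurons, among 11784 genes, were Gm10754 (Pearson correlation 0.975), Sfrp1 (0.970), Nif3l1 (0.969), LOC108167748 (0.964) and Chst1 (0.961). Most like Prph were Smn1 (0.959), Hdac9 (0.958), Cox6c (0.952), Chrac1 (0.950) and Myl12a (0.949). A correlation does not measure the span. Nefh ran from 37.6 to 969 CPM over these subtypes, but LOC108167748 only from 2.23 to 6.38 and Nif3l1 from 6.06 to 11.7. Sfrp1 had a wider span, 1.45 to 49.8. Beside Prph, Smn1 ran from 12.3 to 21.8 and Myl12a from 24.3 to 38.4, while Hdac9 ran from 36.9 to 609. With 9 points from 1 library among this many genes, all 10 genes are given as a description. The Pvalb and Ntrk2 gates had too few neurons to enter.

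In the tendon libraries, where 0 of 21992 neurectomy and 0 of 25306 sham barcodes passed the neuron gate, the neurofilament chains were near 0. Nefl had 0 UMIs after neurectomy and 3 after sham, Nefh 3 and 15, and Nefm 45 and 76, of 79750679 and 133570956 UMIs. Stmn2 stood at 127 CPM (125 to 130) after neurectomy and 71.9 (70.4 to 73.3) after sham, a ratio of 1.77 (1.72 to 1.82), and Thy1 at 83.5 (81.5 to 85.5) and 112 (110 to 114), a ratio of 0.746 (0.725 to 0.768).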

How the data were processed

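The authors deposited raw UMI counts for each feature in each barcode, which per the file headers came from Cell Ranger 8.0.1. The submitters' processing notes list mm10 and GRCm39 but do not tie either to a library. The annotation and the use of strand in counting were not given in the sources used here. Per the labels' protocols, ganglia were digested with enzymes and enriched on a density gradient, which can set which neurons were kept.

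Of 23566 DRG barcodes, 22384 passed a minimum of 500 genes and a limit of 15% of UMIs from 13 mitochondrial genes, and 550 doublets (2.46%) called by Scrublet in scanpy 1.11.5 were removed. A neuron had at least 5 of 10 pan-neuronal genes and at least 10 of their UMIs per 10000. A subtype gate asked for its lead marker and a second marker, for C-LTMR-like neurons at least 2 of 3, and for CGRP peptidergic-like neurons Calca, Tac1 and Adcyap1 with no other gate. Counts were summed per class and divided by the class total. A gene entered a comparison with at least 50 UMIs in all and 10 CPM in the higher class. Intervals are exact Poisson, Clopper-Pearson or conditional binomial intervals, and the code behind the ratios and intervals was tested on simulated counts. With 1 library per group no p-value was computed, and neurons were not used as replicates. Neurons were clustered without the members and vector features (Leiden, resolution 1, 30 components). Clusters were named from the same markers, except that Calca was not used for the CGRP A-fibre-like names. The members, lists and gates were chosen with earlier results of these data known, so none is independent of them. Genes named were all members, the other axonal genes at least 2-fold apart between the subtypes with the highest and lowest Nefh, and the 5 genes most like Nefh and Prph by Pearson correlation of log2(CPM + 10) among genes of at least 500 UMIs. Alternatives tried are given with their effect at the end.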

Additional observations from a re-analysis of the deposited data

How the results depend on the processing

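The counts of members called stayed within 1.5 times the reported ones under nearly all settings, which is a wide limit for counts this small. The count in neurons against other barcodes had little room to move, since its smallest log2 ratio was 3.33 (Nefh). Of 24 recomputed counts, 23 stayed within 1.5 times the reported one, over a stricter neuron gate, doublets kept, at least 5000 UMIs per barcode, subtypes from clusters (65 of 96 pairs called in place of 62 of 104), means over barcodes (57), a stricter marker threshold (64), totals without the members, the level of other barcodes subtracted, neurons under 10000 UMIs left out, neurons with few satellite glia UMIs, at least 2 AAV_gene1 UMIs and weighting to subtype and depth. The exception was the comparison of neurons with and without AAV_gene1, where weighting to cluster and depth gave 0 members called in place of 3. Of 191 values of single members under these settings, 122 stayed within their counting interval and 69 moved, and none of the called values changed sign. Over all 191, 19 differed by over 1.5 times. The 191 leave out Thy1 with the level of other barcodes subtracted, since its lowest subtype lay below that level and gave no ratio. The number of members apart between deep and shallow neurons was 4 as a mean over subtypes and 5 without neurons under 10000 UMIs, in place of 6. With weighting to subtype and depth, 2 members were called for AAV_gene1 in place of 3. The 4 and the 2 lay just at the limit of 1.5 times. Weighting to cluster and depth, the stricter marker threshold, the limit on satellite glia UMIs and leaving out neurons under 10000 UMIs were chosen after seeing the data. When the 8 highest-over-lowest values were taken from clusters, the log2 ratio of Ina was 2.82 in place of 5.14 (3.64 with the stricter marker threshold), that of Thy1 5.48 in place of 7.79 (6.95 as a mean over barcodes) and that of Nefl 4.71 in place of 4.11, and the cause was not tested. The Chrna3 gate had no cluster of its own. No paired analysis was possible because each group had 1 library. Depth limits Ina most, since 3677 of its UMIs were seen in all neurons, and in some subtypes under 20.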

Other observations

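In the tendon libraries the levels of Stmn2 and Thy1 were also taken by class of barcode. Fibroblast-like barcodes held most of both, and were also most of the barcodes, 15115 of 21992 after neurectomy and 17905 of 25306 after sham. Stmn2 stood there at 139 CPM after neurectomy and 71.3 after sham, a ratio of 1.95 (1.89 to 2.01), and was seen in 15.8% and 9.89% of barcodes. Thy1, a known marker of fibroblasts, stood at 86.1 after neurectomy and 115 after sham, a ratio of 0.746 (0.721 to 0.772). The 6463 and 7011 barcodes that fitted no class had much the same Thy1, 85.1 and 114 (ratio 0.747, 0.706 to 0.791). Their Stmn2 was 106 and 76.8 (ratio 1.38, 1.30 to 1.46), so neither gene was confined to the fibroblast-like class. Stmn2 was also seen in endothelial-like barcodes, at 215 and 193 CPM, a ratio of 1.12 (0.896 to 1.39), and macrophage-like barcodes were close to 0 for it, with 1 and 5 UMIs. Tubb3 in fibroblast-like barcodes had 5.09 after neurectomy and 2.63 after sham (1.94, 1.62 to 2.31), and Prph 6.37 and 8.60 (0.740, 0.651 to 0.841). The classes were named from fixed marker lists, each group was 1 library, and whether the difference lies between the conditions or between these libraries cannot be told apart.

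AAV_gene1 outside neurons was seen most in fibroblast-like barcodes of the ganglia, 2.08% of 1441 (1.41 to 2.96%), at 22.7 CPM, against 0.135% of 6666 barcodes with myelinating Schwann markers (0.0618 to 0.256%).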
